A study of Mus musculus with 12 samples.

Results

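The genes described are 8 enzymes and enzyme regulators of itaconate, arginine and polyamine metabolism, namely Acod1, Arg1, Arg2, Nos2, Odc1, Sat1, Ass1 and Azin1. They were chosen by name, with earlier results of these data known, and all probe sets annotated to them were taken. They are 8 of the 18193 genes that have a probe set of their own on the array. Together they have 13 probe sets annotated to 1 gene symbol each, and 1 more that is shared between Ass1 and a second symbol, Gm5424. RNA was measured on Affymetrix mouse expression arrays, in cells of mice whose blood cells carried or lacked Stat5a and Stat5b. The 4 groups were KO treated, KO untreated, control treated and control untreated, with 3 arrays in each group. KO stands for cells labelled as lacking Stat5a and Stat5b, and control for cells labelled as controls. The labels give neither the allele or Cre driver nor the strain, the age of the mice or the duration of the treatment. The treatment field names "GMP", and the series title names the cytokine GM-CSF, so the agent is called the treatment below. The 3 array dates in the titles each hold 1 array of every group. In the titles of dates 1 and 3, "GMP" stands on treated and untreated arrays alike, so there it does not mark the treatment. Whether it names granulocyte-monocyte progenitors is not spelled out in the titles. No label says that the arrays came from separate mice, so p-values measure the spread between these samples, which may be partly technical.

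Itaconate is made inside mitochondria by the enzyme that Acod1 encodes, which takes a TCA cycle intermediate, cis-aconitate, as its substrate. Activated macrophages are known for making it. Arginine is split to ornithine and urea by arginase 1 (Arg1, cytosolic) or arginase 2 (Arg2, mitochondrial), and is oxidised to nitric oxide and citrulline by the inducible nitric oxide synthase (Nos2). Argininosuccinate synthase (Ass1) starts the return of citrulline to arginine. Ornithine decarboxylase (Odc1) turns ornithine into putrescine, the first polyamine. Antizyme inhibitor 1 (Azin1) protects ornithine decarboxylase from the antizymes that send it for degradation, and spermidine/spermine acetyltransferase 1 (Sat1) marks polyamines for breakdown or export. STAT5A and STAT5B are transcription factors activated by GM-CSF and related cytokine receptors.

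Stat5a averaged 36.0 ± 8.84 in KO treated and 60.6 ± 35.4 in KO untreated cells, against 653 ± 254 in control treated and 962 ± 165 in control untreated cells (MAS5 intensity, SD, n = 3 arrays each). For Stat5b the means were 30.2 ± 29.4 in KO treated and 41.3 ± 15.01 in KO untreated cells, against 837 ± 481 in control treated and 1120 ± 535 in control untreated cells. The date 2 arrays stood apart. Their ratio of 3' to 5' probe set signal rises with RNA or cDNA shortening. It was 20.85 to 266.1 for Actb, against 1.144 to 2.045 on the other dates. Within date 2 this ratio was 20.85 on the KO treated, 28.66 on the KO untreated, 266.1 on the control treated and 59.54 on the control untreated array. The title of the date 2 KO treated array also carries another number tag than the other 3 titles of that date, and no label says what it marks. All 9 granulocyte-monocyte progenitor markers exceeded the median of all deposited values, 70.5495, on every array, with lowest intensities that ran between 155 for the receptor gene Flt3 and 15309 for myeloperoxidase (Mpo). Of the 10 macrophage markers 9 had a probe set. Csf1r (6440 to 40377), Cd68 (298 to 1323) and Adgre1 (235 to 848) exceeded that median on every array, Mrc1 ran between 21.4 and 215, and C1qa, C1qb, C1qc, Mertk and Cd5l did not exceed 73.6 on any.

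Of the 8 genes, 6 were bright enough to be tested, which required an intensity above that median on at least 3 of the 12 arrays. Acod1 and Arg2 rose with treatment in both genotypes. Odc1, Sat1 and Azin1 were bright on every array and Ass1 was near the median, and none of these 4 passed the test. Arg1 and Nos2 stayed below the median on all 12 arrays. No member differed between KO and control cells past the threshold of 0.05 on the p-value adjusted by the Benjamini-Hochberg method over all 11815 genes tested.

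**Figure D1:**
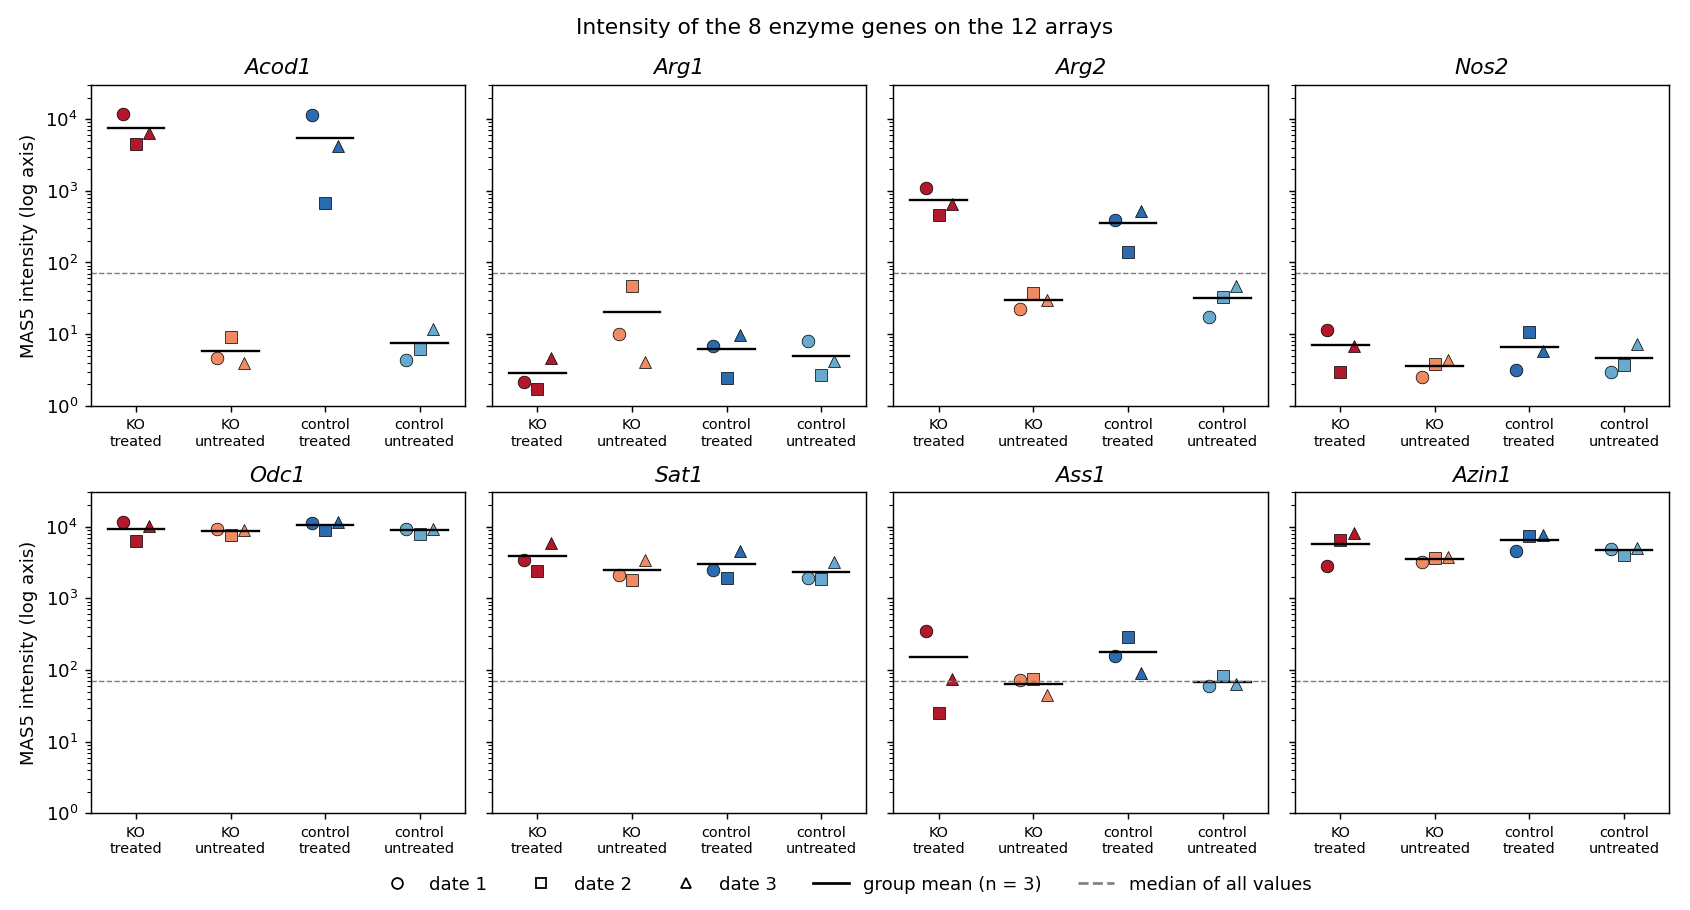
Intensity of the 8 genes (log axis) on the 12 arrays, by group, with 1 point per array, marker shape for the array date and a bar for the group mean (n = 3). Where a gene has several probe sets, the one that stands for the gene is drawn. Acod1 and Arg2 lie below the dashed line, the median of all values (70.5495), on the 6 untreated arrays and above it on the 6 treated arrays, while Arg1 and Nos2 lie below it everywhere.

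Upstream sequence of 2 members is shown because Acod1, which had the largest treatment response of the 6 tested genes, and Sat1, which was bright without treatment, differ in composition next to their transcription starts. Both are the 250 bases before the RefSeq gene start in the mouse build GRCm38.p6, read 5′ to 3′ on the strand of the gene, and capitals mark a TATAAA match. The Acod1 window is chr14:103046762-103047011 on the plus strand, and the Sat1 window is chrX:155216450-155216699 on the minus strand.
Acod1: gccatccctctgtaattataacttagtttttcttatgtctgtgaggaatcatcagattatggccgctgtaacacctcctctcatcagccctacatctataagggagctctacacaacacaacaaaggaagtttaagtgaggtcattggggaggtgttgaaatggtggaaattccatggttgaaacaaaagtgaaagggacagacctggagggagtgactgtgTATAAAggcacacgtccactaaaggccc
Sat1: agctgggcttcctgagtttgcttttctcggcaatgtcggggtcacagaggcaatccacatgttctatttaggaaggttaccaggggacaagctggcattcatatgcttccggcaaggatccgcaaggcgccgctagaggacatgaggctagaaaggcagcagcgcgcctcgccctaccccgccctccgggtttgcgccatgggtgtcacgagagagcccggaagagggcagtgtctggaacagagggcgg
The Acod1 window holds 44.4% G and C and 2 CpG dinucleotides. The Sat1 window holds 59.6% G and C and 15 CpG dinucleotides. The windows of Odc1 and Ass1, not shown, hold 80% and 75.6% G and C, with 35 and 23 CpG dinucleotides. A link between composition and intensity or response was not tested. The median of 32851 such windows was 52.4% G and C. The TATAAA of Acod1 begins 28 bases before the start, and 7.592% of all windows hold these letters on the gene's strand. The TATAAA search was added after the sequence had been read. RefSeq windows were matched for 4 members (Acod1, Odc1, Sat1 and Ass1), and both strands of each were searched for TTCNNNGAA, the STAT GAS motif, which 7.02% of all windows hold. The same was done for the NF-kB consensus (9.549% of windows), the AP-1 motif TGANTCA (6.749%), the CRE TGACGTCA (1.546%), the amino acid response motif TGATGNAA (3.452%), the E-box CACGTG (6.021%) and the interferon-stimulated response element (2.977%). The only match of these 7 among the 4 windows was the E-box in Ass1, which begins 36 bases before the start. The absence of a match says only that these letters are not in the window.

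Acod1 lies on chromosome 14 (GRCm38.p6, positions 103047012 to 103056573) and has 1 probe set. On dates 1, 2 and 3 its intensity was 11829, 4520 and 6371 in KO treated cells, against 4.63, 8.98 and 4.01 in KO untreated cells. In control cells it was 11289, 674 and 4167 with treatment, against 4.37, 6.14 and 11.9 without. The treated and untreated arrays did not overlap in either genotype, and the lowest treated array was the control array of date 2. On the log2(intensity + 13) scale Acod1 rose by 8.54 ± 0.68 in KO cells (SE, limma, adjusted p = 2.59e-04) and by 7.30 ± 0.68 in control cells (adjusted p = 4.21e-04). These are fold changes of 373 and 158 on that scale, and the added 13 lowers them relative to ratios of the intensities themselves. The untreated values all lie below that 13, where MAS5 values are unstable, so those ratios give no reliable fold either. The rise was seen on 3 of 3 dates in each genotype.

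Arg2 (chromosome 12, positions 79130788 to 79156301) has 2 probe sets. The brighter read 1096, 456 and 650 on dates 1, 2 and 3 in KO treated cells, against 22.1, 37.7 and 30.3 in KO untreated cells. Control cells read 394, 141 and 527 with treatment, against 17.1, 32.6 and 46.8 without. Here too the treated arrays lay above the untreated ones without overlap. Arg2 rose by 4.04 ± 0.44 on the log2 scale in KO cells (limma adjusted p = 8.38e-04), and by 2.90 ± 0.44 in control cells (adjusted p = 0.00604). The untreated values all lie below the median of all values, and the added 13 lowers the change relative to ratios of the intensities themselves. The ratio of treated to untreated intensity was 49.6, 12.1 and 21.5 in KO cells and 23.1, 4.34 and 11.3 in control cells on the 3 dates. The other probe set measured 512, 291 and 311 in KO treated, 2.83, 44.6 and 3.96 in KO untreated, 232, 102 and 315 in control treated, and 12.4, 28.1 and 5.79 in control untreated cells. It rose by 3.90 ± 0.56 in KO cells and by 2.96 ± 0.56 in control cells, with adjusted p-values of 0.00364 and 0.0174 in the limma fit of all 21363 probe sets. The sets shared the direction of change in both genotypes.

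Arg1 (chromosome 10, positions 24915207 to 24927470), the arginase of the liver urea cycle and of alternatively activated macrophages, was dim throughout. Its intensity was 2.16, 1.71 and 4.71 in KO treated and 10.0, 47.2 and 4.05 in KO untreated cells, against 6.78, 2.46 and 9.59 in control treated and 8.15, 2.73 and 4.21 in control untreated cells. The single value of 47.2 was on date 2. Nos2 (chromosome 11, positions 78920787 to 78960226) read 11.5, 2.98 and 6.75 in KO treated and 2.53, 3.79 and 4.30 in KO untreated cells. In control cells it read 3.15, 10.7 and 5.80 with treatment and 2.98, 3.67 and 7.29 without. Neither gene was tested, and no value of either reached the median of all values.

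Odc1 (chromosome 12, positions 17544808 to 17551502) was bright in all 4 groups. The probe set that stands for it read 11447, 6242 and 10323 in KO treated and 9386, 7644 and 8933 in KO untreated cells, against 11194, 8981 and 11481 in control treated and 9385, 8031 and 9332 in control untreated cells. Treated and untreated arrays overlapped in both genotypes when all dates were pooled. Paired by date, the treated array was higher on 3 of 3 dates in control cells and on 2 of 3 in KO cells. The log2 change with treatment was 0.07 ± 0.20 in KO cells (95% interval -0.39 to 0.52) and 0.24 ± 0.20 in control cells (-0.22 to 0.69), with limma adjusted p-values of 0.874 and 0.537. The other 2 Odc1 sets gave 0.19 ± 0.24 and 0.27 ± 0.32 in KO cells and 0.32 ± 0.24 and 0.47 ± 0.32 in control cells, and neither passed.

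Azin1 (chromosome 15, positions 38487430 to 38519294) read 2784, 6561 and 8111 in KO treated and 3260, 3657 and 3836 in KO untreated cells, and 4509, 7396 and 7698 in control treated and 4894, 4049 and 5090 in control untreated cells. Treated cells were higher on dates 2 and 3 and lower on date 1, in both genotypes. The log2 change was 0.56 ± 0.30 in KO cells (95% interval -0.11 to 1.24, limma adjusted p = 0.264) and 0.45 ± 0.30 in control cells (-0.22 to 1.12, adjusted p = 0.417). A second set showed the same date pattern, with changes of 0.30 ± 0.29 in KO cells and 0.40 ± 0.29 in control cells. A further, dim set had estimates of the opposite sign, -0.20 ± 0.41 in KO cells and -0.78 ± 0.41 in control cells, and did not pass either.

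Sat1 (chromosome X, positions 155213126 to 155216449) read 3441, 2438 and 5860 in KO treated cells, against 2121, 1829 and 3392 in KO untreated cells. Control cells read 2520, 1925 and 4619 with treatment, against 1922, 1879 and 3198 without. The groups overlapped when all dates were pooled, but on each date the treated array was higher than the untreated one in both genotypes. The log2 change was 0.63 ± 0.20 in KO cells (95% interval 0.19 to 1.07) and 0.32 ± 0.20 in control cells (-0.12 to 0.76). The limma adjusted p was 0.0686 in KO cells and 0.380 in control cells. Without the 4 arrays of date 2, the change in KO cells was 0.74 with an adjusted p of 0.0450, past the threshold. With 64 added before the log it was 0.62 with an adjusted p of 0.0493, and with array weights 0.68 with 0.0156. The fit with array weights stopped before convergence. In the other 22 of 25 alternatives Sat1 stayed uncalled in KO cells, with limma adjusted p-values up to 0.618.

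Ass1 (chromosome 2, positions 31470270 to 31520670) was read by 1 dim set of its own and by 1 brighter set that also carries the symbol Gm5424. Its own set measured 355, 24.9 and 76.2 in KO treated and 72.7, 75.3 and 44.9 in KO untreated cells, against 157, 293 and 90.4 in control treated and 60.6, 81.4 and 63.9 in control untreated cells. The 2 extreme values of KO treated cells, 355 and 24.9, belong to dates 1 and 2. The log2 change was 0.50 ± 0.64 in KO cells and 1.11 ± 0.64 in control cells, with limma adjusted p-values of 0.671 and 0.342. The shared set read 2270, 452 and 983 in KO treated and 2057, 573 and 1086 in KO untreated cells, against 1994, 44.5 and 1053 in control treated and 2166, 193 and 1417 in control untreated cells. All of its date 2 values lay below those of the other dates. In a fit that kept sets with several symbols, which was added after the data had been seen, its change was -0.11 ± 0.58 in KO cells and -0.79 ± 0.58 in control cells, with adjusted p-values of 0.934 and 0.486. Signal of Ass1 cannot be told from that of Gm5424 in this set.

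**Figure D2:**
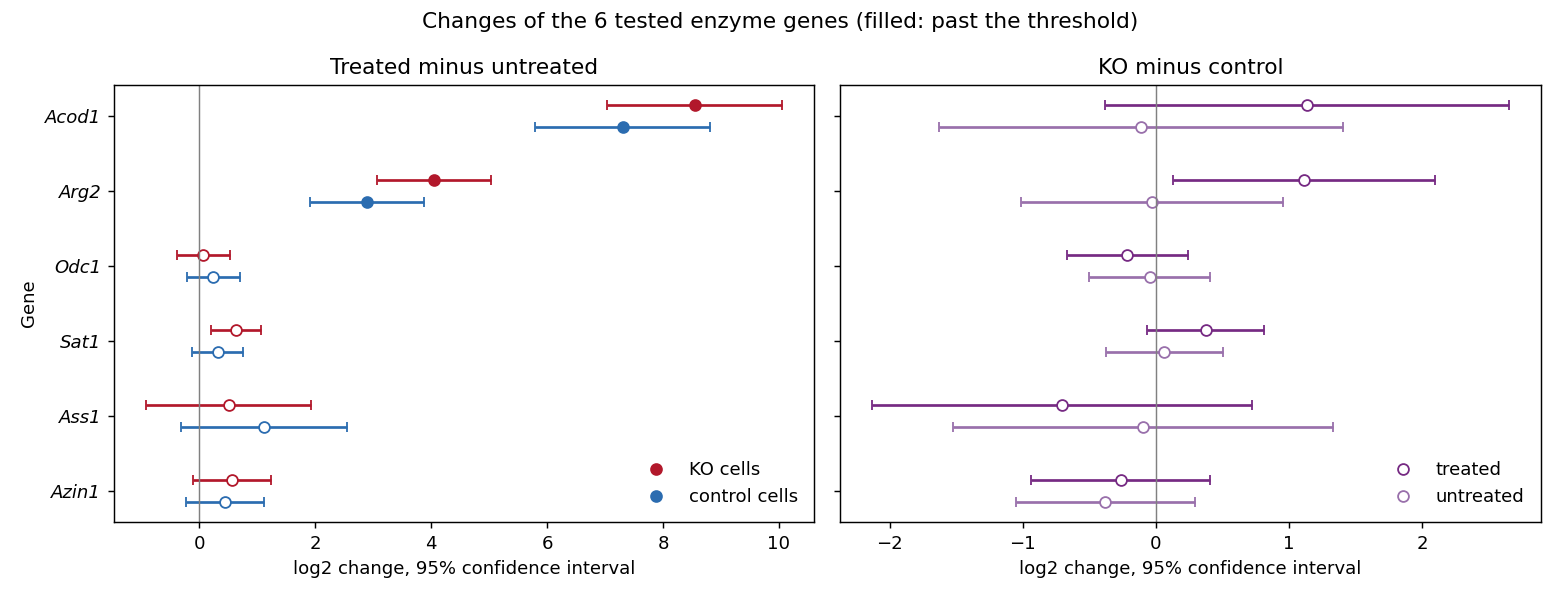
Log2 changes of the 6 tested genes with 95% confidence intervals, treated minus untreated on the left and KO minus control on the right, with filled points for an adjusted p under 0.05. The filled points are Acod1 (8.54 in KO and 7.30 in control cells) and Arg2 (4.04 in KO and 2.90 in control cells), and all KO minus control points are open.

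In KO cells 2 of the 6 tested members rose with treatment and 0 fell. Of all 11815 genes, 11.2% passed the test in that comparison. In control cells the same 2 members rose and 0 fell, where 6.77% of all genes passed. Acod1 and Arg2 exceeded the median of all values only on the 6 treated arrays, so both reached the test through the treated groups. Arg1 and Nos2 were left out as dim. The members were also chosen with earlier results of these data known, so these counts and the medians are descriptions only. The median log2 change of the 6 genes was 0.60 in KO cells and 0.78 in control cells, beside -0.02 and -0.04 over all genes. The control median lies midway between Azin1 (0.45 ± 0.30) and the dim Ass1 set (1.11 ± 0.64), so it depends on that set. The brighter set shared with Gm5424 gave -0.79 ± 0.58 in control cells. All 6 estimates were above 0 in both genotypes for the set that stands for the gene, but in KO cells that of Odc1 was -0.07 under 75th percentile scaling and -0.05 without the date 1 KO treated array, and that of Ass1 was -0.39 without the same array. With each array scaled to its 75th percentile, the all-gene median in KO cells moved to -0.15, and the split of genes past the threshold in KO cells was 657 higher and 654 lower in place of 795 and 526. Under that scaling and under quantile normalization Acod1 and Arg2 passed in both genotypes. Both genes also passed in both genotypes without the date block, without date 2 and with any 1 of the 12 arrays left out, with the highest adjusted p at 0.0369, for Arg2 in control cells without the date 3 control treated array.

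The KO response was compared with the control response directly. The difference, KO minus control, was 1.24 ± 0.96 for Acod1 (95% interval -0.90 to 3.39) and 1.15 ± 0.62 for Arg2 (-0.25 to 2.54), both with a limma adjusted p of 0.9999. For Sat1 it was 0.31 ± 0.28, for Azin1 0.12 ± 0.43, for Odc1 -0.17 ± 0.29 and for Ass1 -0.61 ± 0.91. Of the 6 genes 0 passed, and of all genes 0% passed, with 291 at an unadjusted p under 0.05, none of them a member. Leaving out 1 array gave differences between 0.21 and 2.08 for Acod1 and between 0.65 and 1.54 for Arg2, the lowest of each without the date 2 control treated array, the highest without the date 1 control treated array for Acod1 and without the date 2 KO untreated array for Arg2. The intervals of Acod1 and Arg2 are wide, so the test does not show that the 2 genotypes respond alike.

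**Figure D3:**
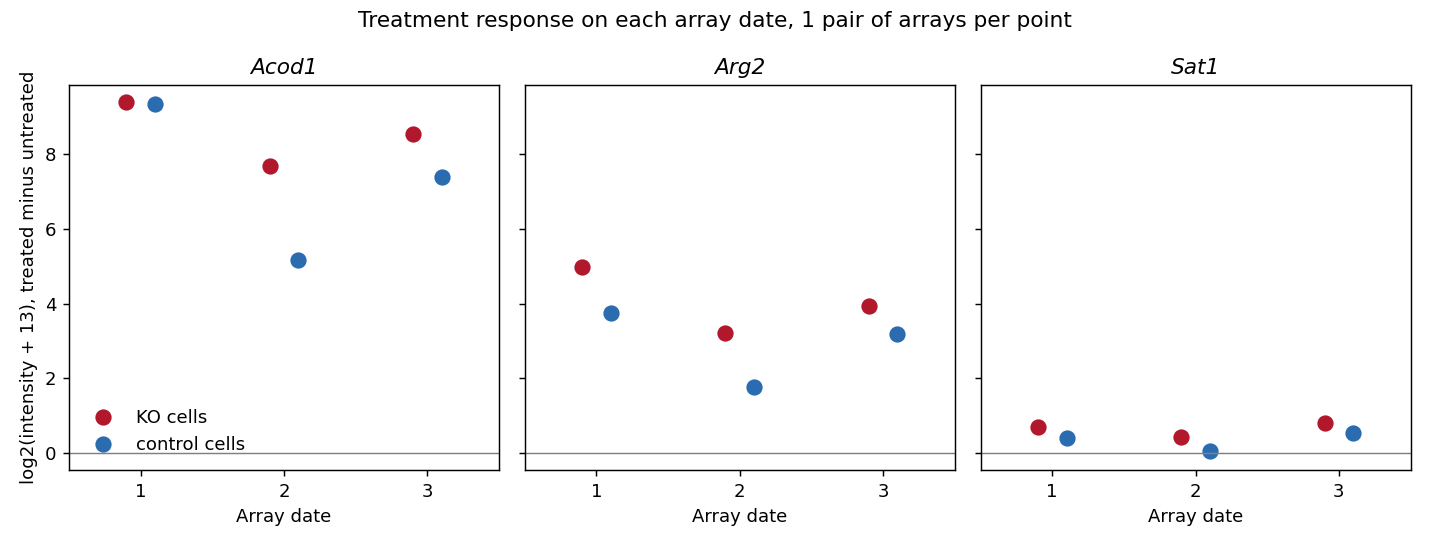
Treated minus untreated difference of log2(intensity + 13) on each array date for Acod1, Arg2 and Sat1, with 1 pair of arrays per point. Acod1 changed by 9.39, 7.69 and 8.55 on dates 1, 2 and 3 in KO cells and by 9.35, 5.17 and 7.39 in control cells, and the KO point is the higher one on all 3 dates for each gene, by as little as 0.05 for Acod1 on date 1.

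With treatment, the levels of Arg2 were higher in KO than in control cells on 3 of 3 dates, by 1.44, 1.61 and 0.30 on the log2 scale. The ratio of its intensity in KO treated cells to that in control treated cells was 2.78, 3.23 and 1.23 on the 3 dates. The fitted difference was 1.12 ± 0.44 (95% interval 0.13 to 2.10, limma unadjusted p = 0.0300, adjusted p = 0.511). The second Arg2 set gave 0.83 ± 0.56, with 2 of 3 dates higher. Acod1 differed by 1.13 ± 0.68 (-0.38 to 2.65, adjusted p = 0.562), and its ratio of KO treated to control treated intensity was 1.05, 6.70 and 1.53. The control treated array of date 2, which had the highest Actb ratio (266.1), carried much of the Acod1 value and part of the Arg2 value. Without it the difference was 0.11 for Acod1 and 0.62 for Arg2. For Arg2 the date 1 difference (1.44) was close to that of date 2 (1.61). Whether the RNA quality of that array took part in its low values of Acod1 and Arg2 was not tested.

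Sat1 was higher in KO treated than in control treated cells on 3 of 3 dates, by 0.38 ± 0.20 on the log2 scale (95% interval -0.06 to 0.82, limma adjusted p = 0.528). The differences of Odc1 (-0.22 ± 0.20), Azin1 (-0.26 ± 0.30) and Ass1 (-0.70 ± 0.64) were below 0, each with intervals that included 0. Of the 6 genes 0 passed in treated cells, where 0.11% of all genes passed. In untreated cells the differences between KO and control cells ran between -0.38 for Azin1 and 0.06 for Sat1, and 0 of 6 passed, where 0.0169% of all genes passed. Untreated Acod1 differed by -0.11 ± 0.68 and untreated Arg2 by -0.03 ± 0.44.

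The order of the group means was the same for Acod1 and Arg2 at the top, with KO treated above control treated cells and both above the untreated groups. For Acod1 the means were 7573 ± 3800 in KO treated and 5377 ± 5410 in control treated cells, against 5.87 ± 2.71 in KO untreated and 7.47 ± 3.94 in control untreated cells (SD, n = 3 each). For Arg2 they were 734 ± 328 in KO treated and 354 ± 196 in control treated cells, against 30.0 ± 7.77 in KO untreated and 32.2 ± 14.9 in control untreated cells. Within the treated pair and within the untreated pair, the group ranges of Acod1 and of Arg2 overlapped and the adjusted p exceeded 0.05. For Sat1, Odc1, Azin1 and Ass1 none of the 4 pairs of groups tested (treated against untreated in each genotype, KO against control with and without treatment) differed past the threshold.

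The genes whose profiles were most like those of the members were taken by Pearson correlation over the 12 arrays, after centring each gene on every date. For each tested member they are the highest among 11815 genes, and so are high by selection. The points also share the split into 6 treated and 6 untreated arrays, so the correlations are descriptions only. Nearest to Acod1 were Tars (r = 0.995), which encodes threonyl-tRNA synthetase, Slc7a3 (0.992), a cationic amino acid transporter, and Slc7a11 (0.990), a subunit of the cystine and glutamate exchanger. Nearest to Arg2 were the cytokine gene Tnf (0.993), Bri3 (0.993) and Cd14 (0.989), a co-receptor for lipopolysaccharide. For Sat1 they were F10 (0.974), the coagulation factor X gene, Rras (0.957) and Nagk (0.957), and for Odc1 they were Fam72a (0.948), Tgm2 (0.942) and Socs2 (0.939). For Azin1 they were Bbx (0.955), Dnmt3a (0.939) and Tasor (0.937), and for Ass1 Thoc1 (0.977), Gm5113 (0.967) and Tusc1 (0.943).

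Slc7a3 also belongs to the list of transporters of arginine and other cationic amino acids, of which 9 of 10 genes were tested. In KO cells 3 rose and 1 fell, where 11.2% of all genes passed, and in control cells 2 rose and 0 fell, where 6.77% passed. Slc7a3 averaged 830 in KO treated and 41.4 in KO untreated cells, against 947 in control treated and 46.8 in control untreated cells. It rose by 3.93 ± 0.45 on the log2 scale in KO cells and by 3.80 ± 0.45 in control cells (limma adjusted p = 0.00109 and 0.00175), and passed without the date block and with any 1 array left out. Slc7a1, the widely expressed arginine importer CAT1, rose by 0.95 ± 0.24 in KO cells (adjusted p = 0.0328) and by 1.26 ± 0.24 in control cells (adjusted p = 0.0144). Slc3a2, the heavy chain shared by several amino acid exchangers, rose by 1.44 ± 0.32 in KO cells (adjusted p = 0.0190) and changed by 1.06 ± 0.32 in control cells (adjusted p = 0.0739). The mitochondrial ornithine carrier Slc25a15 fell by 1.06 ± 0.23 in KO cells (adjusted p = 0.0184) and had an estimate of -0.78 ± 0.23 in control cells (adjusted p = 0.0699). Without the date block the calls of Slc7a1 in KO cells (adjusted p = 0.235) and control cells (0.138) and that of Slc25a15 in KO cells (0.0951) were lost, and 75th percentile scaling took that of Slc7a1 in KO cells to 0.0830. Leaving out 1 array ended the Slc7a1 call in 9 of 12 fits in KO cells (each KO array, control treated date 1, control untreated dates 1 and 3) and in 3 of 12 in control cells (each control untreated array), that of Slc3a2 in 3 (KO treated date 2, KO untreated dates 1 and 3) and that of Slc25a15 in 4 (KO treated dates 1 and 3, KO untreated dates 2 and 3). The highest adjusted p in these fits was 0.123 for Slc7a1 in KO cells, 0.0638 for Slc7a1 in control cells, 0.0918 for Slc3a2 and 0.0861 for Slc25a15.

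Of the other polyamine genes 12 of 18 were tested. In KO cells 1 rose and 2 fell, where 11.2% of all genes passed, and in control cells 1 rose and 0 fell, a share near the 6.77% of all genes. Smox, the spermine oxidase gene, averaged 1092 in KO treated and 302.0 in KO untreated cells, against 622 in control treated and 303 in control untreated cells. It rose by 1.79 ± 0.23 on the log2 scale in KO cells (limma adjusted p = 0.00187) and by 0.99 ± 0.23 in control cells (adjusted p = 0.0340). Spermidine synthase (Srm) fell by 1.46 ± 0.32 in KO cells (adjusted p = 0.0184) and had an estimate of -0.32 ± 0.32 in control cells (adjusted p = 0.596). Mtap, which salvages the methylthioadenosine left by polyamine synthesis, fell by 1.47 ± 0.33 in KO cells (adjusted p = 0.0217) and had an estimate of -0.40 ± 0.33 in control cells (adjusted p = 0.523). The difference between the 2 genotypes' responses did not pass for any gene of the list. The rise of Smox in KO cells was called without the date block (adjusted p = 0.00764) and with any 1 array left out. Smox in control cells was not called without the block (0.162), without date 2 (0.0789), under 75th percentile scaling (0.0503) or in 5 of the 12 fits that left out 1 array (control treated dates 2 and 3, each control untreated array), up to an adjusted p of 0.138. Srm lost its call without the block (0.213) and in 3 of 12 such fits (KO treated date 3, KO untreated dates 2 and 3), up to 0.0783. Mtap lost it without the block (0.0709), without date 2 (0.0512) and in 5 of 12 (KO treated dates 1 and 2, each KO untreated array), up to 0.0869.

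The list of arginine, urea cycle, proline and creatine enzymes had 10 of 14 genes tested, of which 0 rose and 2 fell in each genotype, where 11.2% of all genes passed in KO and 6.77% in control cells. Gatm, which uses arginine in the first step of creatine synthesis, fell by 1.89 ± 0.31 in KO cells and by 1.61 ± 0.31 in control cells (limma adjusted p = 0.00550 and 0.0153). Prodh, the proline dehydrogenase gene, fell by 1.21 ± 0.21 in KO cells and by 1.05 ± 0.21 in control cells (adjusted p = 0.00740 and 0.0182). The median of the 10 was -0.56 in KO cells and -0.47 in control cells, beside -0.02 and -0.04 over all genes. Without the date block none of these 4 calls passed, with adjusted p-values of 0.278 and 0.473 for Gatm and 0.0501 and 0.128 for Prodh in KO and control cells. With 1 array left out the calls in KO cells were kept, and those in control cells were lost in 4 of 12 fits each. These left out control treated date 1 or 3 or control untreated date 2 or 3 for Gatm (up to 0.0698), and control treated date 1 or 3 or control untreated date 1 or 3 for Prodh (up to 0.106).

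Among the nitric oxide synthases and the enzymes of their cofactor tetrahydrobiopterin and of dimethylarginines, 9 of 11 genes were tested. In KO cells 1 rose and 0 fell, a share near the 11.2% of all genes, and in control cells 1 rose and 1 fell, where 6.77% of all genes passed. Gch1, which makes the first committed step of tetrahydrobiopterin synthesis, averaged 523 in KO treated and 155 in KO untreated cells, against 373 in control treated and 113 in control untreated cells. It rose by 1.83 ± 0.36 in KO cells and by 1.73 ± 0.36 in control cells (limma adjusted p = 0.0126 and 0.0217). Qdpr, which recycles the cofactor, fell by 1.23 ± 0.22 in control cells (adjusted p = 0.0106), while its estimate in KO cells was -0.67 ± 0.22 (adjusted p = 0.0743). Without the date block the adjusted p was 0.0504 and 0.0903 for Gch1 in KO and control cells and 0.534 for Qdpr in control cells. Leaving out 1 array ended the Gch1 call in 3 of 12 fits in KO cells (KO treated date 3, KO untreated dates 1 and 3, up to 0.0667) and in 4 in control cells (control treated and control untreated dates 1 and 3, up to 0.111), and that of Qdpr in 2 (control treated and control untreated date 1, up to 0.0612).

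In the list of itaconate and TCA cycle genes 19 of 21 were tested. In KO cells 0 rose and 2 fell, where 11.2% of all genes passed, and in control cells 0 rose and 1 fell, where 6.77% passed, so neither share exceeded that of all genes. The median log2 change of the 19 was -0.36 in KO and -0.65 in control cells, beside -0.02 and -0.04 over all genes. In KO and control cells it was 0.31 and 0.38 for the transporter list and 0.02 and 0.04 for the polyamine list. For the nitric oxide synthase and cofactor list it was -0.45 and -0.30. Clybl, which takes part in the breakdown of itaconate by way of citramalyl-CoA, averaged 99.2 in KO treated and 233 in KO untreated cells, against 78.3 in control treated and 203 in control untreated cells. It fell by 1.09 ± 0.22 in KO cells and by 1.22 ± 0.22 in control cells (limma adjusted p = 0.0127 and 0.0106). Suclg2, a subunit of succinyl-CoA synthetase, fell by 0.88 ± 0.24 in KO cells (adjusted p = 0.0415) and had an estimate of -0.86 ± 0.24 in control cells (adjusted p = 0.0578). Without the date block the adjusted p was 0.225 for Clybl in KO cells, 0.226 for Clybl in control cells and 0.296 for Suclg2 in KO cells. Leaving out 1 array ended the Clybl call in 3 of 12 fits in KO cells (KO treated date 3, KO untreated dates 1 and 3, up to 0.0750) and in 3 in control cells (control treated dates 1 and 3, control untreated date 3, up to 0.0608). It ended that of Suclg2 in 9 of 12 (KO treated dates 2 and 3, each KO untreated array, control treated and control untreated dates 1 and 3, up to 0.157), and without date 2 its adjusted p was 0.107. In the other 3 comparisons 0 genes of any of the 5 lists passed.

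**Figure D4:**
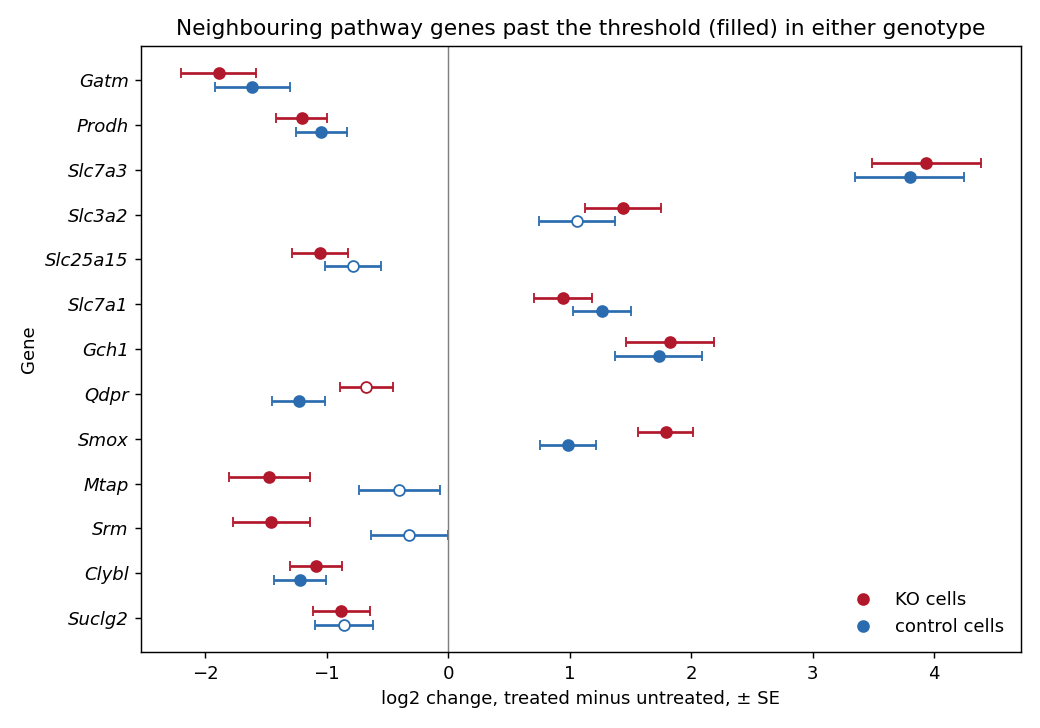
Log2 change with treatment, ± SE, for the 13 genes of the 5 pathway lists that passed in KO or control cells, with KO cells drawn above control cells and filled points for an adjusted p under 0.05. Slc7a3 stands farthest right (3.93 in KO and 3.80 in control cells) and Gatm farthest left (-1.89 in KO and -1.61 in control cells).

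Markers of other blood cells were measured beside these changes, and in such bulk samples fewer cells of a type and less RNA per cell cannot be told apart. The counts below stand beside 11.2% of all genes that passed with treatment in KO cells and 6.77% in control cells. Of the 9 progenitor markers 0 passed in either genotype, and their summed intensity was 73515 to 124463 in KO treated and 77318 to 184869 in KO untreated cells, against 73065 to 221477 in control treated and 82600 to 179288 in control untreated cells. Of the 10 macrophage markers 4 were tested and 0 passed. Their summed intensity was 11957 to 31884 in KO treated and 8512 to 23720 in KO untreated cells, against 11908 to 41819 in control treated and 7623 to 27467 in control untreated cells. Csf1r made up most of this sum on every array. Of the 5 monocyte markers 4 were tested, and their sum was 10205 to 21409 in KO treated and 12238 to 13681 in KO untreated cells, against 8471 to 15955 in control treated and 10621 to 15143 in control untreated cells. Cd14 rose by 3.47 ± 0.46 in KO cells and by 2.63 ± 0.46 in control cells (limma adjusted p = 0.00215 and 0.0106), and F13a1 fell by 1.496 ± 0.24 in KO cells and fell by 1.38 ± 0.24 in control cells (adjusted p = 0.00542 and 0.0106). Cx3cr1 rose by 2.22 ± 0.33 in KO cells (adjusted p = 0.00361) and had an estimate of -0.09 ± 0.33 in control cells, with an adjusted p of 0.858 for the difference of the 2 responses. In control cells the Cd14 call was lost without the date block (0.0886) and without the date 3 control treated array (0.0553), and that of F13a1 without the date 3 control treated or control untreated array (up to 0.0641). The part of monocyte genes, and of the T and NK markers given next, in the rise of Acod1 and Arg2 was not tested. Of the neutrophil, dendritic, eosinophil, megakaryocyte, B, T and NK, and stroma and endothelium lists 0 markers passed with treatment. These lists had only 1 to 6 tested genes each, so a count of 0 does not show that they were unchanged. The summed T and NK markers, of which Nkg7 alone was tested, lay at 1195 to 5620 in KO treated and 8023 to 9663 in KO untreated cells, against 1530 to 4710 in control treated and 7724 to 8631 in control untreated cells. The other markers of this list with a probe set exceeded the median of all values on fewer than 3 of the 12 arrays. These sums therefore do not show a signal of the list as a whole. The log2 change of Nkg7 was -1.47 ± 0.45 in KO cells and -1.42 ± 0.45 in control cells (adjusted p = 0.0624 and 0.0877). Of the mast cell and basophil markers Cpa3 fell by 1.23 ± 0.34 in KO cells (adjusted p = 0.0464), a call lost without the block (0.340), without date 2 (0.0769) and in 8 of 12 fits that left out 1 array (KO treated dates 2 and 3, each KO untreated array, control treated dates 1 and 3, control untreated date 3, up to 0.190). Of the erythroid markers Car1 fell by 1.21 ± 0.26 in control cells (adjusted p = 0.0254), a call lost without the block (0.563) and without any of 5 arrays (control treated dates 2 and 3, each control untreated array, up to 0.129). The other genotype had estimates of the same sign. They were -1.28 for Cpa3 in control cells (limma adjusted p = 0.0526) and -0.85 for Car1 in KO cells (0.0640, and 0.0250 without date 2).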

How the data were processed

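RNA of 12 samples in 4 groups of 3 was measured on single-color arrays. The deposited table gives 45101 probe sets on a linear intensity scale. The authors computed this intensity with MAS5, according to the submitters' processing notes, and the version is not given in the sources used here. Scaling to a common level shows in the trimmed means, 500.003 to 500.004 over the arrays, and a broad rise would lower other values on it. Dim MAS5 values are unstable. Precision is limited by how many arrays there are. Names came from the platform annotation, in which 34945 carried 1 symbol, 932 several and 9160 none. Of the first, 34741 gene identifiers were found in the RefSeq table and 0 symbols changed. The positions of probe sets within transcripts were not used here. Positions of genes are those of GRCm38.p6.

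Values were taken as log2(intensity + 13), 13 being the 20th percentile of all values. Kept were the 21363 probe sets that exceeded the overall median on 3 or more arrays, and the one with the highest mean log2 value stood for its gene, with sets marked _x_ used only where no other was left. limma 3.58.1 in R 4.3.3 fitted all 12 arrays with 4 groups and array date as a block, with Benjamini-Hochberg adjustment over 11815 genes and 6 residual and 3.96 prior degrees of freedom. Intervals are 95% and unadjusted. They reached a median of 0.644 on the log2 scale to either side. Other member sets took their test from a fit of all probe sets. The fit was tested on simulated data.

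The block comes from the dates in the titles. The 18 pairs of same-date arrays correlated at 0.357 to 0.753 in their deviations from group means, and the 36 pairs of different dates and groups at -0.661 to 0.399. The members, lists and marker genes were chosen with earlier results of these data known. Named were all members, the called genes of each list where 5 or fewer were called, the 3 genes most like each tested member, Stat5a and Stat5b, and, chosen after their values were seen, markers of the cell type lists. A gene of a list without a probe set of its own symbol was not tested. The alternatives were other pseudocounts, filters, scalings, probe set rules, array weights, fits without the block, without date 2 or without single arrays, and fits of only the groups compared.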

Additional observations from a re-analysis of the deposited data

How the results depend on the processing

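The treatment calls of Acod1 and Arg2 passed under all 25 alternatives in each genotype. Acod1 ranged from 6.66 to 10.06 in KO and from 5.52 to 8.65 in control cells on the log2 scale, and Arg2 from 3.01 to 4.50 in KO and from 2.00 to 3.47 in control cells, with the highest adjusted p at 0.0487 for Arg2 in control cells when only the groups compared were fitted. Of 744 recomputed member values 0 lost a call, 3 gained one (Sat1 in KO cells, given above) and 29 that were never called changed sign. Counts over all genes moved more. Without the replicate block, the pairing of arrays by date, 293 genes passed for treatment in KO cells, 165 in control cells, 1 between treated KO and control cells and 1 between untreated ones, in place of 1321, 800, 13 and 2. With no filter on dim probe sets the first 3 counts were 797, 443 and 4, and with array weights, whose fit stopped before convergence, 2293, 2388 and 27, with 1 gene for the difference in response in place of 0. With only the groups compared they were 673, 214 and 0, and 0 for untreated cells. With 1 added before the log, 2 genes passed between treated and 0 between untreated KO and control cells, quantile normalization gave 5 between treated cells, and the mean over the probe sets of a gene gave 1 between untreated cells. Leaving out 1 array gave 470 to 1754 genes for treatment in KO cells, 237 to 1038 in control cells, 0 to 11 between treated and 0 to 2 between untreated KO and control cells. The cause was not tested. Tgm2, named beside Odc1, changed with treatment in KO cells by 3.36 as the mean over its probe sets, against -0.05 for the set that stood for it.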
